A study of Mus musculus with 6 samples.

Results

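The 10 genes described here encode the enzymes of the pentose phosphate pathway and 3 other dehydrogenases that make NADPH. They were taken by mouse symbol from a table of raw counts with 49315 genes, and all 10 were found and had enough counts to be tested. They are G6pdx, Pgls and Pgd of the oxidative branch, Rpia, Rpe, Taldo1 and Tkt of the non-oxidative branch, and Me1, Idh1 and Idh2. The counts came from RAW264.7, a macrophage-like mouse line labelled WT, and each group was of this 1 line. In 3 libraries the cells had been treated for 24 h with 4 μg/mL of SKI-II, a synthetic inhibitor of sphingosine kinases. In the other 3 they had received DMSO, its vehicle, for the same time. Both groups share the line, the genotype and the solvent, so the comparison is of SKI-II in DMSO against DMSO alone.

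The pentose phosphate pathway branches from glycolysis at glucose 6-phosphate. Its oxidative branch reduces NADP to NADPH and ends in a pentose phosphate, and its non-oxidative branch shuffles carbon between pentose phosphates and the sugars of glycolysis. NADPH is also made outside the pathway, by malic enzyme and by the NADP-linked isocitrate dehydrogenases. Macrophages spend NADPH on the oxidative burst, on the reduction of glutathione and thioredoxin, and on the synthesis of fatty acids and sterols.

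The libraries held between 12495957 and 20050677 counts on genes, and 12274 genes passed the filter on low counts. Values below are normalized counts, which are counts scaled to a common library size of 16042438. Nothing in the labels says that the 3 libraries of a group came from separate cultures, so the p-values measure only the spread between these libraries. All 6 macrophage markers examined (Lyz2, Cd68, Adgre1, Csf1r, Itgam and Ptprc) had counts in the libraries. Their summed level lay between 1.299e+05 and 1.95e+05 normalized counts with DMSO and between 6.057e+04 and 1e+05 with SKI-II, and 3 of the 6 (Lyz2, Adgre1 and Itgam) fell, while Cd68, Csf1r and Ptprc were not called. Without Lyz2, the other 5 together lay between 39801 and 44414 with DMSO and between 36231 and 38741 with SKI-II. Epithelial markers (Epcam, Krt8 and Krt18) were at 0 in every library, and the summed markers of T cells, B cells, endothelial cells and fibroblasts reached at most 1.943, 4.771, 18.13 and 20.37 normalized counts. The part of the fall in macrophage markers in the results below was not tested.

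With SKI-II, transcripts of the pathway did not move as a block. G6pdx, the enzyme of entry, rose 1.91-fold and Me1, the cytosolic malic enzyme, rose 2.22-fold. Tkt and Rpia of the non-oxidative branch fell to 0.65 and 0.613 of their DMSO levels, and the isocitrate dehydrogenases Idh1 and Idh2 fell to 0.612 and 0.426. Pgls, Pgd, Rpe and Taldo1 did not pass the test. These folds are from the quasi-likelihood test of edgeR over all tested genes, called at a Benjamini-Hochberg adjusted p below 0.05. Since the cells were measured in bulk, fewer cells with a transcript and less of it per cell cannot be told apart.

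Of the 10 members, 2 rose, where 18.4% of all tested genes were called higher, and 4 fell, where 19.7% were called lower. At the study's fold threshold, a log2 fold change beyond 1, 1 member was higher (Me1) against a background of 8.28%, and 1 was lower (Idh2) against 7.44%. Without DMSO replicate 1 or without SKI-II replicate 3, 2 members were above 1. The median log2 fold change was -0.22 over the members and 0.004 over all tested genes. In 6 of the 10 members the 3 SKI-II libraries did not overlap the 3 DMSO libraries, and this held for 50.3% of all tested genes. The members together took 0.238% to 0.249% of the counts in the DMSO libraries and 0.22% to 0.256% in the SKI-II libraries, ranges that overlap.

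**Figure D1:**
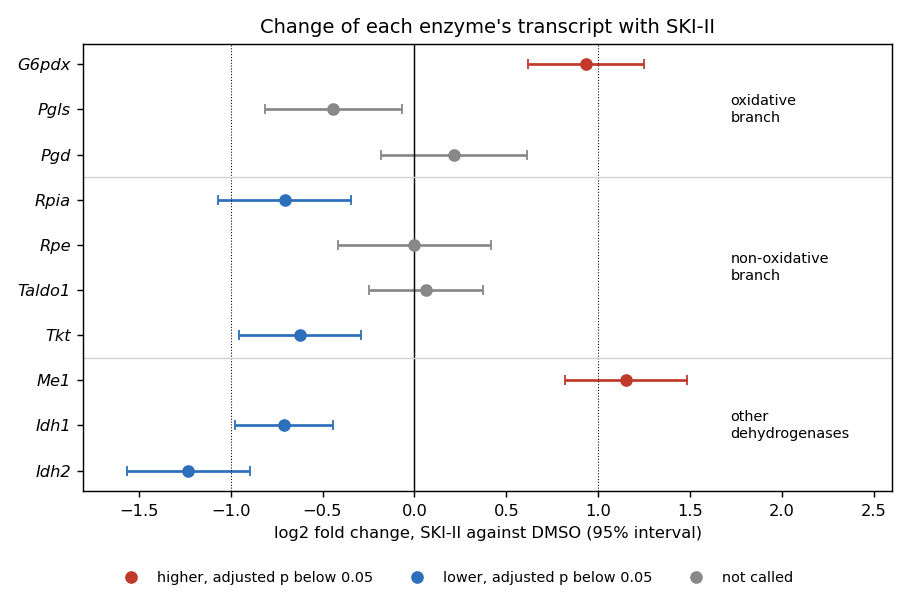
Log2 fold change of each of the 10 transcripts, SKI-II against DMSO (x axis), with its 95% interval, grouped by branch; red marks higher, blue lower and grey not called, and dotted lines mark -1 and 1. G6pdx (0.93) and Me1 (1.15) lie to the right of 0, and Rpia, Tkt, Idh1 and Idh2 lie to the left with intervals that do not reach 0.

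The stretch around the start site is shown for the 2 members that rose and, beside them, for Idh2 and Tkt, which fell. Each is 120 bases of RefSeq sequence on GRCm38.p6, from 100 bases before to 20 bases after the annotated start, written along the strand of the gene. Capitals mark a match to TGACNNNGC, the core of the antioxidant response element that Nrf2 binds, on either strand.
G6pdx, chrX:74428861-74428980, minus strand: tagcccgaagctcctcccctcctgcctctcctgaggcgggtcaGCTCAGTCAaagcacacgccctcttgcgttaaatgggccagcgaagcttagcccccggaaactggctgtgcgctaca
Me1, chr9:86695895-86696014, minus strand: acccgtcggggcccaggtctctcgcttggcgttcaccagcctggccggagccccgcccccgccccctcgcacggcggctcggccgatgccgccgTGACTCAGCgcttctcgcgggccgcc
Idh2, chr7:80115331-80115450, minus strand: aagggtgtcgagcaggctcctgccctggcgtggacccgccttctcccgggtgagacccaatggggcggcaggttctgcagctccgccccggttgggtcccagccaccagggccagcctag
Tkt, chr14:30549031-30549150, plus strand: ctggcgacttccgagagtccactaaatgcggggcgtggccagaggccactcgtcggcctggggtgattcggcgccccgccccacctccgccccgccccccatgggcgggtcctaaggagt
In G6pdx the match lies on the strand opposite to the gene, so the printed letters GCTCAGTCA are its reverse complement, from -57 to -49. In Me1 the match TGACTCAGC spans the start, from -6 to 3, and its first letters are also a match to the AP-1 motif TGANTCA. Idh2 and Tkt have no match in these letters.

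All 10 members had a RefSeq window, 13 windows in all since 3 members have more than 1 annotated start, and 6 motifs were searched on both strands from 250 bases before to 50 bases after the start. TGACNNNGC was found in 3 of the 13 windows, those of G6pdx, Me1 and a second start of Pgd, where TGACATTGC lies at 4 to 12. It is present in 12.4% of 32851 windows of the same length. The AP-1 motif TGANTCA was found in Me1 alone among the members and in 7.81% of all windows, and the E2F motif TTTNNCGC in Pgls and G6pdx and in 5.17%. The GC box GGGCGG was found in 11 of the 13 windows, at least 1 for each member, and in 35.7% of all windows. CCAAT was found in 6 of the 13 windows (of Idh1, Rpe, Pgd, Idh2, Taldo1 and Me1) against 37.4%, and the E-box CACGTG in none of them against 7.15%. A match is given only as letters in the window, and binding was not measured.

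G6pdx encodes glucose-6-phosphate dehydrogenase, which makes the first NADPH of the oxidative branch and sets its pace. The gene lies on chromosome X, 74409483 to 74429194, on the minus strand of GRCm38. It had 5029, 4010 and 4430 normalized counts in DMSO replicates 1, 2 and 3, and 8611, 9452 and 7637 in the SKI-II replicates. Every SKI-II library was above every DMSO library. The means were 4490 ± 512 and 8567 ± 908 (SD, n = 3), a log2 fold change of 0.93 (SE 0.14, 95% interval 0.62 to 1.25, adjusted p = 0.000781). Of all tested genes, 89.7% had a log2 fold change at or below this value. In its exons, 418 bases (13.6%) overlap those of Ikbkg on the opposite strand. Without strand in the counting the reads of that stretch cannot be assigned to either gene. Ikbkg had 943 to 1712 counts and a log2 fold change of 0.24 (adjusted p = 0.147). The part of the shared stretch in the value of G6pdx was not tested. G6pd2, a close copy (93.1% over 2331 bases), had 2 counts in all 6 libraries together, against 39802 for G6pdx.

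The next enzyme, the lactonase Pgls, opens the ring of the product of G6pdx and makes no NADPH. Its gene lies on chromosome 8, 71592176 to 71601092. Pgls had 1303, 1543 and 1699 normalized counts with DMSO and 958.9, 1008 and 1379 with SKI-II. The groups overlapped, since SKI-II replicate 3 was above DMSO replicate 1. The means, 1515 ± 200 and 1115 ± 230 (SD, n = 3), gave a log2 fold change of -0.44 (SE 0.17, adjusted p = 0.0613), which missed the threshold. Without DMSO replicate 1 it was -0.55 (adjusted p = 0.0289) and without SKI-II replicate 3 it was -0.63 (adjusted p = 0.0118), past the threshold in both cases. With all 6 libraries it was also called with library size alone (adjusted p = 0.0456) and with no filter on low counts (0.0265). On the same strand 776 bases (20.6%) of its exons are shared with Fam129c, which had 10 to 78 counts in a library.

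Pgd, phosphogluconate dehydrogenase, makes the second NADPH of the branch and releases a pentose phosphate. The gene is on chromosome 4, 149149991 to 149166771. With DMSO it had 7968, 6679 and 6524 normalized counts, and with SKI-II 8193, 10040 and 6342. SKI-II replicate 2 held the highest value and replicate 3 the lowest of all 6 libraries, so the groups overlapped fully. The log2 fold change was 0.22 (SE 0.18, adjusted p = 0.371), and its 95% interval of -0.18 to 0.61 holds both no change and a moderate rise. Per kilobase of exon, the level of G6pdx over that of Pgd, the 2 steps of the branch that make NADPH, was 1.33 ± 0.0829 with DMSO and 2.23 ± 0.277 with SKI-II (SD, n = 3).

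**Figure D2:**
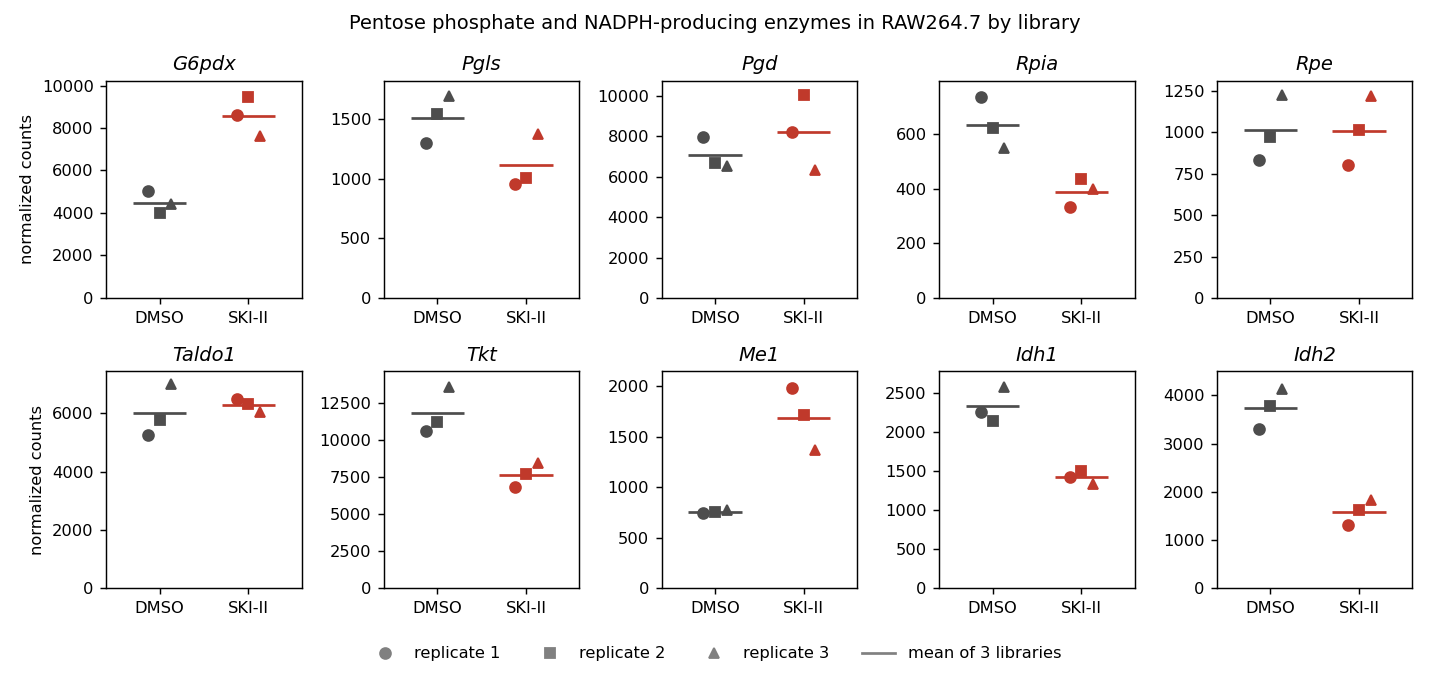
Normalized counts (y axis, from 0) of each of the 10 genes in the 3 DMSO libraries (grey) and the 3 SKI-II libraries (red); symbols mark the replicate number and bars the mean. The groups do not overlap in G6pdx, Rpia, Tkt, Me1, Idh1 and Idh2, and overlap in Pgls, Pgd, Rpe and Taldo1.

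In the non-oxidative branch, Rpia and Rpe share the product of Pgd. Rpia, ribose phosphate isomerase, turns it into ribose 5-phosphate for nucleotides. The gene is on chromosome 6, 70765720 to 70792232. It had 737.2, 621.6 and 548.6 normalized counts with DMSO and 334.6, 435.1 and 398.4 with SKI-II. All 3 SKI-II libraries were below all DMSO libraries, with means of 636 ± 95.1 and 389 ± 50.9 (SD, n = 3). Rpia fell by 0.71 on the log2 scale (SE 0.16, 95% interval -1.07 to -0.34, adjusted p = 0.00722). Part of its longest transcript is also found at 90% identity or more in other genes, so its reads there may be shared and its value is uncertain to that extent. Among them are Dhcr7 (213 bases), D10Wsu102e (231), Dhx33 (231) and Ppil4 (231), which had 6813, 6425, 4218 and 3239 counts over the 6 libraries, each above the 3049 of Rpia. Dhcr7 also fell (log2 fold change -1.5, adjusted p = 0.000846), and its part in the fall of Rpia was not tested.

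Rpe, the epimerase that turns the same product into xylulose 5-phosphate, lies on chromosome 1, 66700831 to 66719805. Its normalized counts were 836.3, 975.4 and 1227 with DMSO and 801.2, 1012 and 1221 with SKI-II. The replicates spread alike in both groups, and the means of 1013 ± 198 and 1012 ± 210 (SD, n = 3) were almost the same. The log2 fold change was -0.001 (adjusted p = 0.998), with a 95% interval of -0.42 to 0.42. Rpe shares 558 bases of exon (17.9%) with Kansl1l on the opposite strand. Kansl1l had 104 to 206 counts and fell (log2 fold change -0.65, adjusted p = 0.0261).

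Transaldolase and transketolase do the carbon shuffling and run both ways. Tkt, the thiamine-dependent transketolase, is on chromosome 14, 30548359 to 30574720. It had 10570, 11200 and 13580 normalized counts with DMSO and 6826, 7712 and 8437 with SKI-II. The groups did not overlap, and the mean went from 11780 ± 1590 to 7658 ± 807 (SD, n = 3). This is a log2 fold change of -0.62 (SE 0.15, 95% interval -0.96 to -0.29, adjusted p = 0.00886). Taldo1, the transaldolase, is on chromosome 7, 141392199 to 141402968. It had 5248, 5786 and 6996 normalized counts with DMSO and 6486, 6306 and 6042 with SKI-II. The SKI-II values lay inside the DMSO range. Its log2 fold change was 0.06 (SE 0.14, 95% interval -0.25 to 0.37, adjusted p = 0.752).

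Outside the pathway, Me1 had the largest rise of the members. This cytosolic enzyme turns malate into pyruvate with the release of NADPH, and its gene is on chromosome 9, 86581371 to 86695953. With DMSO it had 746.9, 756.8 and 774.3 normalized counts, the smallest spread relative to its mean of any member. With SKI-II it had 1982, 1713 and 1368, a wider spread but each above every DMSO library. The means of 759 ± 13.9 and 1687 ± 308 (SD, n = 3) gave a log2 fold change of 1.15 (SE 0.15, 95% interval 0.82 to 1.48, adjusted p = 0.000312), and 92.8% of tested genes were at or below this value.

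Both NADP-linked isocitrate dehydrogenases moved the other way. Idh1 works in the cytosol and peroxisomes, and its gene is on chromosome 1, 65158616 to 65186500. It had 2265, 2147 and 2588 normalized counts with DMSO and 1434, 1506 and 1344 with SKI-II. The SKI-II libraries lay close together and below all DMSO libraries, with a mean of 1428 ± 80.9 against 2333 ± 229 (SD, n = 3). The log2 fold change was -0.71 (SE 0.12, 95% interval -0.98 to -0.44, adjusted p = 0.00146). Idh2, its counterpart in mitochondria, is on chromosome 7, 80094846 to 80115392. It had 3300, 3788 and 4143 normalized counts with DMSO and 1319, 1632 and 1828 with SKI-II. Again no SKI-II library reached a DMSO library. The means of 3744 ± 424 and 1593 ± 257 (SD, n = 3) gave the lowest log2 fold change of the members, -1.23 (SE 0.15, 95% interval -1.57 to -0.9, adjusted p = 0.000219).

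Levels were compared between genes as CPM per kilobase of exon. In DMSO, Taldo1 stood highest at 172.6, followed by Tkt (99.9), G6pdx (90.9), Idh2 (90.2), Pgd (68.2), Idh1 (52.5), Pgls (25.1), Rpe (20.3), Me1 (12.3) and Rpia (7.4). The ranges over the DMSO libraries overlapped for Tkt and G6pdx, for G6pdx and Idh2, and for Pgls and Rpe. Compared within each library, the order of Tkt and G6pdx and that of G6pdx and Idh2 changed between libraries. Pgls was above Rpe in each DMSO library (21.54, 25.51 and 28.09 against 16.75, 19.53 and 24.57). In SKI-II the order of the mean levels was Taldo1 (180.3), G6pdx (173.4), Pgd (79.2), Tkt (64.9), Idh2 (38.4), Idh1 (32.1), Me1 (27.3), Rpe (20.3), Pgls (18.4) and Rpia (4.53). Here only 3 neighbouring pairs had ranges over the libraries that did not overlap, namely G6pdx above Pgd, Tkt above Idh2 and Pgls above Rpia. Compared within each SKI-II library, Idh1 was also above Me1 in all (32.27, 33.87 and 30.24 against 32.1, 27.75 and 22.16). Rpe was likewise above Pgls (16.04, 20.27 and 24.45 against 15.86, 16.66 and 22.79). These orders depend on the length taken for a gene. Per kilobase of the longest transcript, G6pdx (179.5 to 222.2) lay below Taldo1 (276.5 to 296.9) in every SKI-II library, and Idh2 and Pgd came before G6pdx in DMSO.

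**Figure D3:**
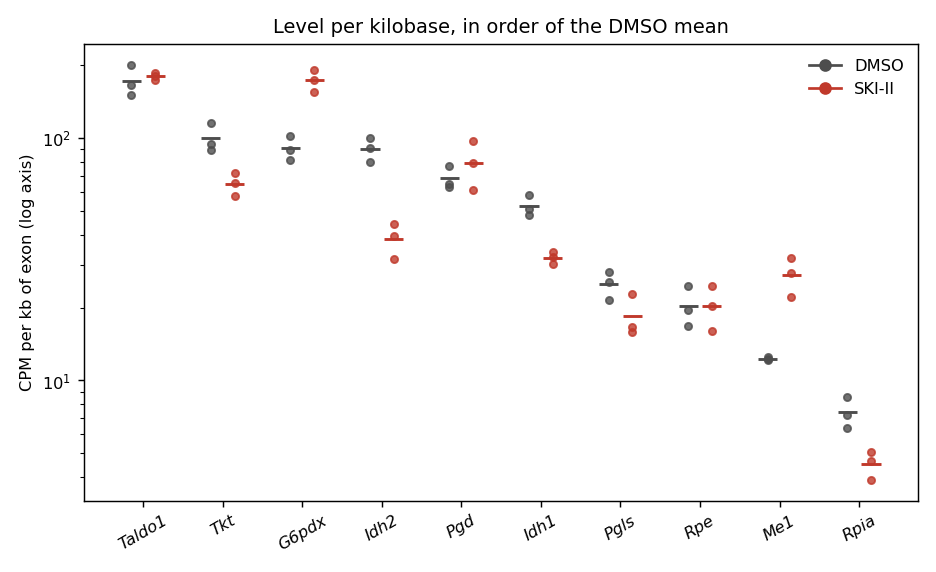
Level of each gene in CPM per kilobase of exon (log axis), in the order of the DMSO mean, with DMSO libraries in grey and SKI-II libraries in red; points are libraries and bars are means. G6pdx rises from 90.9 to 173.4, beside Taldo1 at 180.3 (with the longest transcript as length, 201.4 against 287.3), Me1 from 12.3 to 27.3, and Idh2 falls from 90.2 to 38.4.

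Ratios within a library, formed from these levels per kilobase, show the same differences without the scaling between libraries. They use the values already tested and carry no further test. The level of G6pdx over that of Tkt was 1.14, 0.855 and 0.779 with DMSO and 3.01, 2.93 and 2.16 with SKI-II. The sum of the oxidative branch over that of the non-oxidative branch was 0.624 ± 0.119 with DMSO and 1.0 ± 0.127 with SKI-II (SD, n = 3). The largest changes of mean level within these sums were those of G6pdx (90.9 to 173.4) and Tkt (99.9 to 64.9). Pgls, Pgd, Rpe and Taldo1 were not called, so the ratio does not show a move of whole branches. Within the non-oxidative branch, Taldo1 over Tkt was 1.73 ± 0.038 and 2.81 ± 0.398. Among the other dehydrogenases, Me1 over Idh1 was 0.237, 0.254 and 0.215 with DMSO and 0.995, 0.819 and 0.733 with SKI-II. Me1 over the sum of Idh1 and Idh2 was 0.0867 ± 0.00677 and 0.393 ± 0.102, and Idh1 over Idh2 was 0.585 ± 0.0559 and 0.855 ± 0.165. In each of these ratios, and in that of G6pdx over Pgd, the SKI-II libraries were all above the DMSO libraries, also with the longest transcript as length. A change of length multiplies a ratio of single genes by the same factor in every library, so for those ratios it is no check. The ratios themselves move with that length, and the mean of G6pdx over Tkt was then 0.47 with DMSO and 1.37 with SKI-II, and that of G6pdx over Pgd 0.875 and 1.46.

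**Figure D4:**
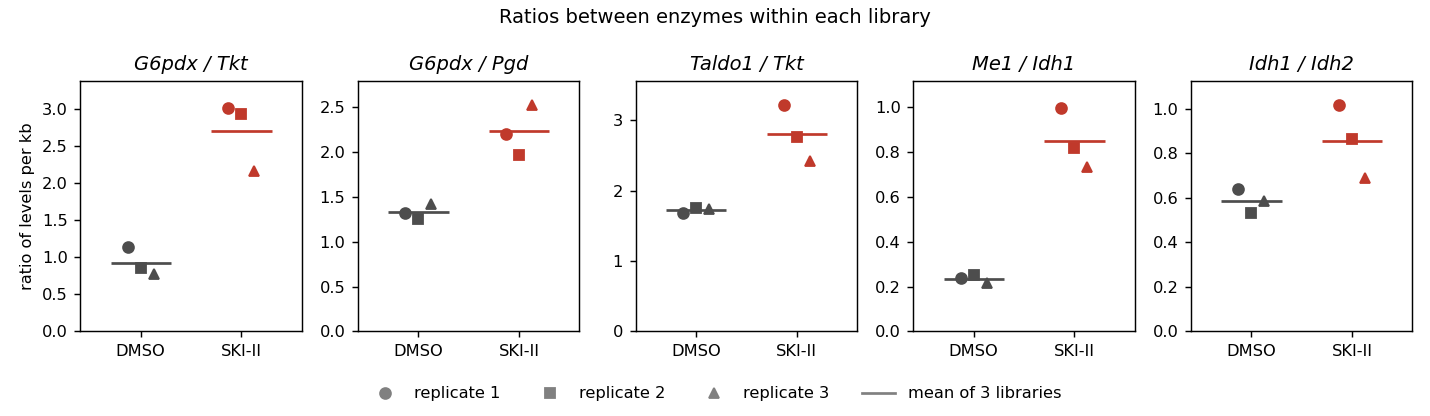
Ratio of the levels per kilobase of 2 enzymes (y axis, from 0) in each DMSO (grey) and SKI-II (red) library; symbols mark the replicate number and bars the mean. In all 5 panels every SKI-II library lies above every DMSO library, with the mean of G6pdx over Tkt going from 0.923 to 2.7.

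The genes around the members were examined as 4 lists chosen by function. The side steps of the pentose phosphate pathway join it to ribose, nucleotides and glycogen. Of 15 such genes 12 were tested, 4 rose and 3 fell, where 18.4% of all tested genes were called higher and 19.7% lower. The median log2 fold change was -0.1. Of the 3 genes of synthetases that draw ribose 5-phosphate into nucleotides, Prps2 fell by 1.62 and Prps1 fell by 1.1 on the log2 scale (adjusted p = 9.2e-05 and 0.00101). The third, Prps1l3, was not called (log2 fold change -0.09, adjusted p = 0.746). Dera, the deoxyribose-phosphate aldolase, fell by 1.24 (adjusted p = 0.000594). Rbks, the ribokinase, had a log2 fold change of 1.12 (adjusted p = 0.00256) and Pgm1, a phosphoglucomutase, of 0.88 (adjusted p = 0.0106). H6pd, which carries out the first reactions of the oxidative branch inside the endoplasmic reticulum, rose from 808.9 ± 59.9 to 1226 ± 139 normalized counts (SD, n = 3, log2 fold change 0.6, adjusted p = 0.00573). The paralogs G6pd2, Tktl1 and Tktl2 had at most 2 counts in any library and were not tested.

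The second list holds other enzymes that make or convert nicotinamide nucleotides. Of 15 genes 14 were tested, 1 rose and 10 fell, where 18.4% of all tested genes were called higher and 19.7% lower. The median log2 fold change was -0.52. The count of 10 was 6 without DMSO replicate 2 and 6 without DMSO replicate 3. The gene that rose was Aldh1l2, a mitochondrial formyltetrahydrofolate dehydrogenase that makes NADPH, from 1871 ± 330 to 11690 ± 838 normalized counts (SD, n = 3, log2 fold change 2.65, adjusted p = 8e-06). Its cytosolic counterpart Aldh1l1 was scarce, with 12, 17 and 18 counts with DMSO and 0, 0 and 1 with SKI-II, a ratio of 0.019 (exact 95% counting interval 0.000471 to 0.111, adjusted p = 0.000735). Mthfd1, a cytosolic enzyme of the same folate route, fell by 1.09 (adjusted p = 0.00123). The NAD-linked counterparts of the members were also lower. Idh3a, the catalytic subunit of the NAD-linked isocitrate dehydrogenase, fell by 1.09 (adjusted p = 0.000288) and its partner Idh3b fell by 0.77 (adjusted p = 0.00447). Me2, the mitochondrial malic enzyme, fell from 2267 ± 169 to 1279 ± 83.7 normalized counts (SD, n = 3, log2 fold change -0.83, adjusted p = 0.000535), against the rise of Me1. Idh3g (-0.43, adjusted p = 0.0315) and the transhydrogenase Nnt (-0.4, adjusted p = 0.0376) were called, but Idh3g was not called without DMSO replicate 2 (adjusted p = 0.0942), DMSO replicate 3 (0.0707) or SKI-II replicate 1 (0.0703), and Nnt was not called without any 1 library other than DMSO replicate 1 (adjusted p of at least 0.0504), nor with all 6 libraries and no filter on low counts (0.0576). Me3 was at 0 in all libraries.

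Of 21 enzymes that use NADPH, all were tested, 5 rose and 9 fell, where 18.4% of all tested genes were called higher and 19.7% lower. With the replicate number as a block, 8 of these enzymes rose. The median log2 fold change was -0.14. Cybb, the catalytic subunit of the phagocyte NADPH oxidase, had the largest change, from 5540 ± 1926 to 327 ± 101 normalized counts (SD, n = 3, log2 fold change -4.08, adjusted p = 1.5e-05). Dhcr7, the last reductase of cholesterol synthesis, fell by 1.5 (adjusted p = 0.000846). Blvrb, a flavin and biliverdin reductase, and Akr1b3, the aldose reductase, rose by log2 fold changes of 1.68 (adjusted p = 5.2e-05) and 1.56 (adjusted p = 0.00121). Of 19 genes that supply substrate to the members, all were tested, 3 rose and 7 fell, against the same 18.4% and 19.7% of all tested genes. Their median was -0.12. The glucose transporter Slc2a1 rose from 3399 ± 590 to 11500 ± 3665 normalized counts (SD, n = 3, log2 fold change 1.76, adjusted p = 0.000431). Among genes that make, export or split citrate, which feeds Idh1 and Idh2 by way of isocitrate, Cs fell by 0.84, the carrier Slc25a1 fell by 0.94 and Acly fell by 0.85 (adjusted p = 0.00109, 0.000957 and 0.000363). The dicarboxylate carrier Slc25a10, which moves malate, fell by 1.13 (adjusted p = 0.000472).

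**Figure D5:**
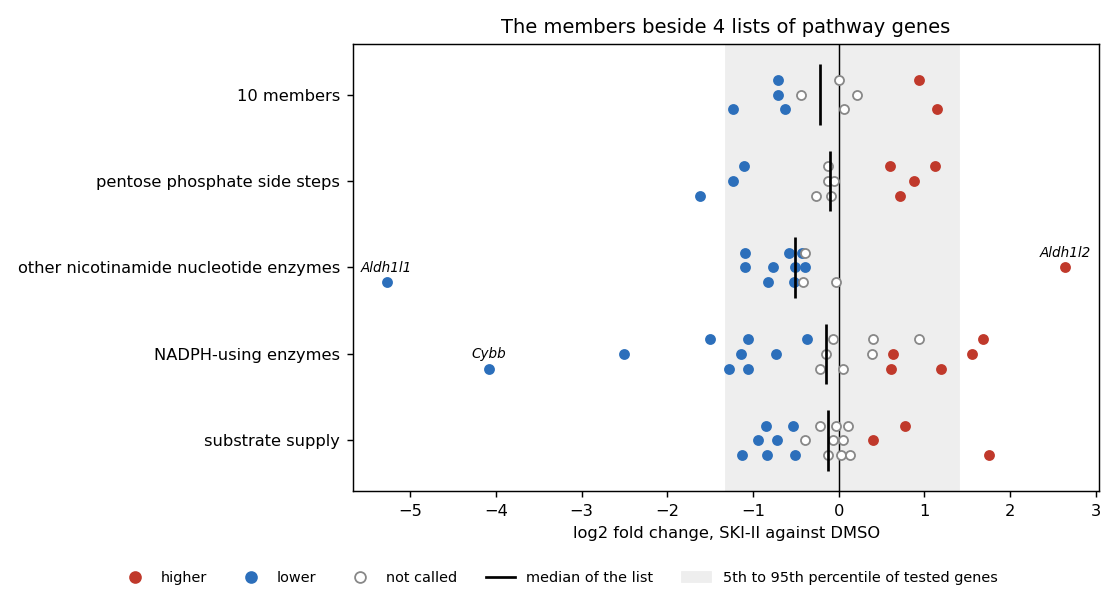
Log2 fold change, SKI-II against DMSO (x axis), of the 10 members and of the tested genes in 4 pathway lists; filled red and blue points are called higher and lower, open points are not called, black bars are medians and the grey band runs from the 5th to the 95th percentile of all tested genes (-1.32 to 1.4). All 10 members lie inside the band, while Cybb and Aldh1l1 lie far to its left and Aldh1l2 to its right.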

How the data were processed

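Poly(A) RNA of 3 DMSO and 3 SKI-II libraries was sequenced. Per the submitters' processing notes the authors used Trimmomatic 0.36, STAR 2.5.2b, featureCounts of Subread 1.5.2 and DESeq2, and they deposited raw counts of reads per Ensembl gene. Genome build, annotation and strand setting of the counting were not given in the sources used here. All count columns were used. Groups and replicate numbers came from the labels, and the dose and time from the study's methods.

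Names, positions and exon lengths were taken from GENCODE M21 on GRCm38, which named 49056 of 49315 identifiers. Counts were tested with the quasi-likelihood test of edgeR (4.0.16, R 4.3.3) after TMM scaling, the expression filter (minimum count 10, minimum total 15) and Benjamini-Hochberg adjustment over 12274 genes, called at 0.05. The common coefficient of variation was 17.5%, and no pair of libraries within a group agreed within sampling noise. The study's methods name the Wald test of DESeq2, which was an alternative here (version 1.42.0), beside limma-voom (limma 3.58.1), RLE scaling, library size alone, no filter, a minimum of 10 counts in each library, leaving out each library, the replicate number as a block, and the longest transcript as gene length. The programs were tested on simulated data. Near copies were sought with blastn 2.17.0 (at least 90% identity over 200 bases) and figures drawn with matplotlib 3.10.9.

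All members are named, and from each list at most the 5 called genes with the largest absolute log2 fold change, with any paralog or NAD-linked counterpart of a member. A gene that this rule selects is not reported here. The members and lists were chosen with earlier results of these data known.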

Additional observations from a re-analysis of the deposited data

How the results depend on the processing

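Over 13 alternatives, 125 of 130 values of the members kept their direction or stayed uncalled, on the same side of the threshold as in the text, and the other 5 were all of Pgls, which became called lower. Its adjusted p was 0.0456 with library size alone, 0.0265 with no filter, 0.0109 with the replicate block, 0.0289 with DMSO replicate 1 left out and 0.0118 with SKI-II replicate 3 left out. The log2 fold change ranged over the alternatives from 0.85 to 1.01 for G6pdx, 1.02 to 1.28 for Me1, -0.81 to -0.6 for Rpia, -0.71 to -0.51 for Tkt, -0.77 to -0.63 for Idh1 and -1.34 to -1.12 for Idh2. The number of members above a log2 fold change of 1 was 1 to 2 when each library was left out, and was 2, with G6pdx beside Me1, without either DMSO replicate 1 or SKI-II replicate 3. Whether the replicate numbers pair the libraries is not given by the labels and was not settled by the counts. Deviations of same-numbered libraries correlated at 0.246, 0.01 and 0.458, and those of differently numbered ones at -0.462 to 0.296. With the replicate block 2 members were higher and 5 lower, and 8 NADPH-using enzymes were called higher, against 5. With the longest transcript as length, which was applied to the ratios and to the order in SKI-II only after the data were seen, Idh2 ranked 3, Pgd 4 and G6pdx 5 in DMSO.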

Other observations

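Other genes of the 4 lists, named after their values were seen, add detail to the use of NADPH. The fatty acid synthase Fasn fell by 1.14 on the log2 scale (edgeR, adjusted p = 0.000362). Of the thioredoxin reductases, the cytosolic Txnrd1 rose from 6586 ± 302 to 10030 ± 541 normalized counts and the mitochondrial Txnrd2 fell from 725 ± 29.8 to 436 ± 49.5 (SD, n = 3, edgeR adjusted p = 0.0037 and 0.00238). Txnrd3 was called higher (log2 fold change 0.63, edgeR adjusted p = 0.0433) but not with library size alone (0.0623) or when 1 library was left out, be it the second (0.164) or the third (0.104) of DMSO, or the first (0.127) or the second (0.116) of SKI-II, while glutathione reductase Gsr had 2068 ± 62.8 and 2137 ± 171 and was not called (adjusted p = 0.772). The biliverdin reductases also went separate ways, with Blvra falling by 1.28 (edgeR adjusted p = 0.00159) where Blvrb rose. Of the hexokinases that feed glucose into the pathway, Hk3 rose by a log2 fold change of 0.78 (edgeR adjusted p = 0.00319), and Hk1 (-0.07) and Hk2 (0.13) were not called.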
